A study of Arabidopsis thaliana with 12 samples.

Results

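Latrunculin B is a toxin that binds actin monomers and depolymerizes actin filaments. In wild-type leaves infiltrated with it, 90 of the 27313 loci of Arabidopsis thaliana measured by RNA-seq were much higher than in mock leaves. In sid2 leaves, their mean levels with the toxin stayed near those of mock leaves. The members were chosen from the measured values themselves. TPM values (transcript levels scaled for coding length and depth within each library) were summed per locus, and a response L was taken in each genotype as log2((mean TPM with latrunculin B + 1)/(mean TPM with DMSO + 1)). A member had an L of 2 or more in the wild type, with its lowest latrunculin B library above its highest DMSO library, and an L between -0.25 and 0.25 in sid2. The wild-type criteria were met by 695 loci (2.54% of all), of which 320 had a sid2 L above 0.25 and below 1, 262 had a sid2 L of 1 or more, and 23 had a sid2 L below -0.25. Because the rule used both responses, they are described here and not tested.

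The 4 groups held 3 libraries each. WT DMSO was wild-type Col-0 infiltrated with 0.01% DMSO, WT latB was Col-0 infiltrated with 1 µM latrunculin B, and sid2 DMSO and sid2 latB were leaves of plants labelled sid2 given the same solutions. All plants were 4 weeks old and grew at 22 °C with 10 h of light, and whole mature leaves, 3 per plant, were frozen 24 h after infiltration. No sid2 allele is named, and nothing in the labels ties a library to a plant. The p-values therefore cover only the scatter among these libraries, which may be technical.

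Salicylic acid is a plant immune hormone, most of which is made in stressed Arabidopsis leaves by way of isochorismate. Isochorismate is the product of the enzyme ISOCHORISMATE SYNTHASE 1 (ICS1, the gene mutated in sid2 plants). Salicylic acid is perceived by NPR proteins, which work with TGA transcription factors that bind TGACG elements in promoters of defence genes. WRKY transcription factors, many of them defence regulators, bind the W-box.

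Promoters are shown for members with the TGACG core among the 10 members of highest mean level in WT latB, since TGA7, a factor of the TGA family, is itself a member. The windows run from 250 bases before to 50 bases after the annotated gene start, read from the RefSeq TAIR10.1 assembly, 5′ to 3′ on the gene's strand. Capitals mark TGACG on either strand and the W-box, which was searched on both strands as TTGACC and, for its other common form, as TTGACT. The genes are thioredoxin TRX5 (chr1:17076368-17076667, minus strand), acireductone dioxygenase ARD3 (chr2:11233339-11233638, minus strand) and the aspartyl protease AT5G10760 (chr5:3402340-3402639, minus strand).
TRX5: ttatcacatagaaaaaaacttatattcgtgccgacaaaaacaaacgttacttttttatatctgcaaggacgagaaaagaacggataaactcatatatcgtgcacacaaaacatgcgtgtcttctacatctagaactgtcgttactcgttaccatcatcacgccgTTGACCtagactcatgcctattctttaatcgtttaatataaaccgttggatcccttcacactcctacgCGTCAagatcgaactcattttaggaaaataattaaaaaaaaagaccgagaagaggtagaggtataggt
ARD3: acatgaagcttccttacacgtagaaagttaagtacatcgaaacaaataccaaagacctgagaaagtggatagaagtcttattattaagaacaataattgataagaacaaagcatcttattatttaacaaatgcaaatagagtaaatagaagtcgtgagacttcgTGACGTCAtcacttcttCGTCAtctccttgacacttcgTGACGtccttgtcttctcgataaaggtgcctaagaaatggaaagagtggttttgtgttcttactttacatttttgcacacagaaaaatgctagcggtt
AT5G10760: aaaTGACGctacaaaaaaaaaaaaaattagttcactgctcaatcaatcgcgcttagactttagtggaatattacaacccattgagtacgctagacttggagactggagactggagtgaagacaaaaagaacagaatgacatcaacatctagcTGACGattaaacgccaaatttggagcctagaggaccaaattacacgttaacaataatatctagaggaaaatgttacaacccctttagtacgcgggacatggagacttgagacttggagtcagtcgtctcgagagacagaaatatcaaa
The ARD3 window held 4 TGACG matches, at -86, -83, -69 and -48 from the start, the first pair being overlapping matches on opposite strands. TRX5 held a W-box at -86 and TGACG at -18, and AT5G10760 held TGACG at -247 and -98. None of these letters stood in the windows of ICS1, UGT76B1 or WRKY38. Over the 89 members with a window, 42.7% held a W-box and 30.3% TGACG, against 32.4% and 23.1% of 26644 windows of all annotated loci. Among the other genes that met the wild-type criteria, 50.9% of 601 windows held a W-box and 31.1% TGACG. The W-box stood in 55.6% of the 261 windows of genes with a sid2 L of 1 or more. A G-box, CACGTG, was in 7.87% of the member windows and 7.81% of all. The ER stress elements ATTGGNNCACG and the longer form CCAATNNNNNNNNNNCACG were in none of the member windows, and in 0.139% and 0.867% of all. CCACGTCA, another ER stress element that always contains a TGACG match, was in 1.12% of member windows and 1.55% of all. CGCGTT stood in 1.12% against 3.43%, and GCCGCC in 2.25% against 2.56%. These shares are descriptions, and a match is not a binding site.

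The median over members of the group mean was 4.32 TPM in WT DMSO, 32.4 TPM in WT latB, 4.40 TPM in sid2 DMSO and 4.39 TPM in sid2 latB. Mean levels in WT latB ran from 3.03 to 926 TPM, with 16 members at 100 TPM or more, 70 at 10 or more and 81 at 5 or more. The wild-type L ran from 2.01 to 6.42 with a median of 2.38, and the sid2 L had a median of 0.04, positive for 56 members, negative for 30 and 0 for 4. All libraries of WT latB lay above the other 9 libraries for 88 members, as they did for 22.5% of all loci, a count that the rule largely fixes. The exceptions were ICS1 and AT2G27389. In sid2, the latB libraries all lay above the DMSO libraries for 4 members, against 14.1% of all loci. Those were UGT76B1, AT2G44240, AT5G25820 and ERDJ3B. The latB libraries all lay below for 1 member, against 4.14%. The band of the rule limits both counts. For 24 members both sid2 means were under 1 TPM, where a pseudocount of 1 shrinks L toward 0, and for 18 of these the WT DMSO mean was under 1 TPM too.

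**Figure D1:**
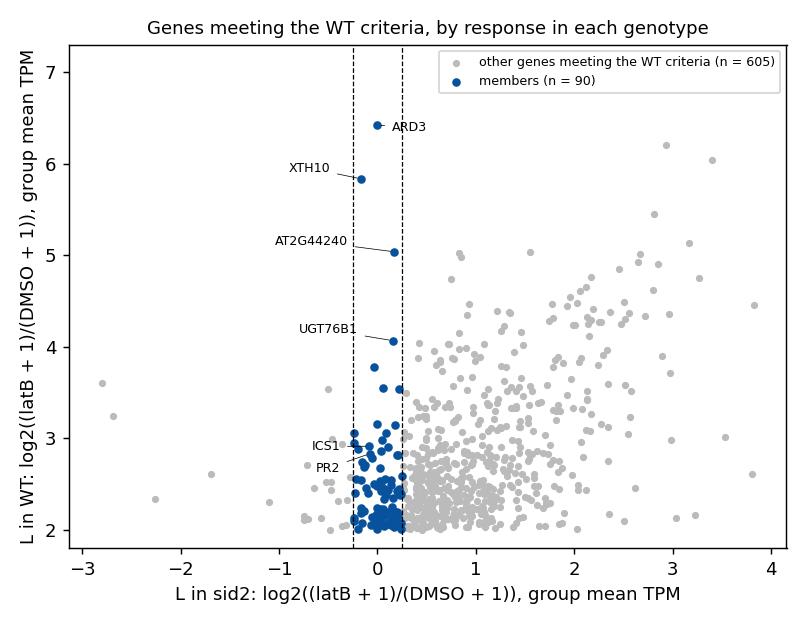
Response of the 695 genes that met the wild-type criteria. Each point is a gene, with L in sid2 on the horizontal and L in the wild type on the vertical axis (log2 of group mean TPM + 1); dashed lines mark the band from -0.25 to 0.25 that defines the 90 members (blue), and 605 other genes are grey, most of them to the right of the band.

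**Figure D2:**
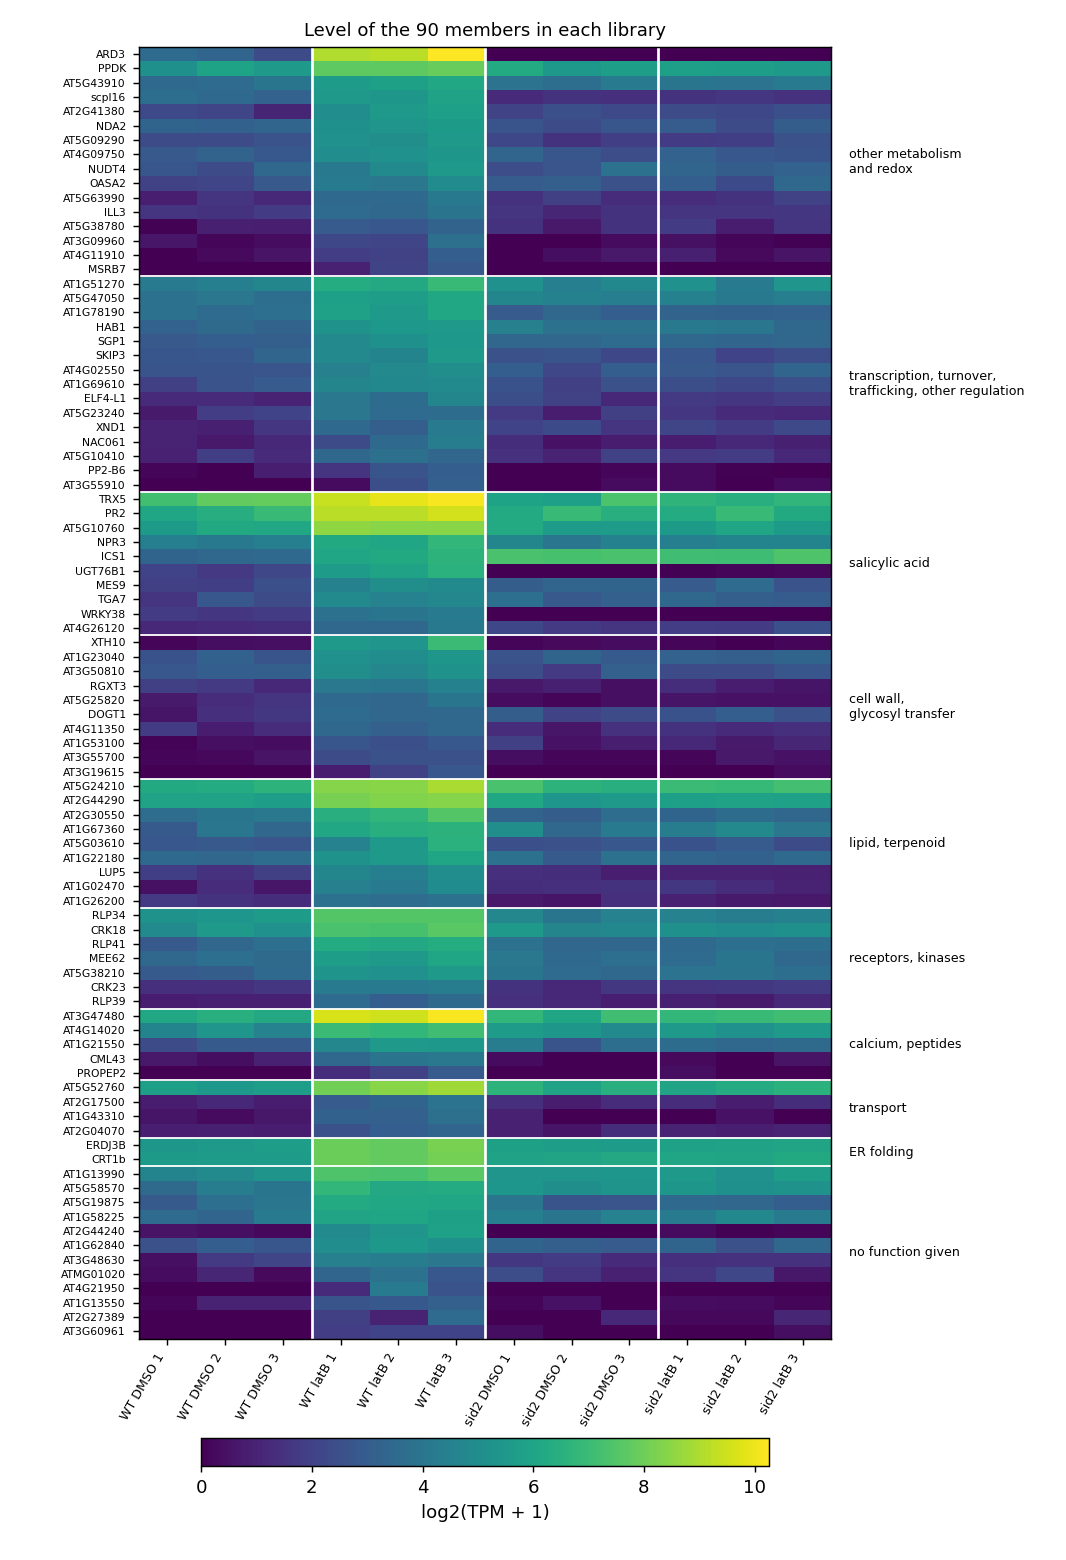
Level of the 90 members (rows, grouped by role) in the 12 libraries (columns), as log2(TPM + 1). WT latB columns are the brightest for all rows but ICS1, which is brightest in the 6 sid2 libraries, and AT2G27389, whose lowest WT latB library is below a sid2 library; ARD3, UGT76B1 and WRKY38 are dark in sid2.

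Totals of the libraries ran from 14506953 to 22449381 estimated reads. The TPM scale is shifted in WT latB: over the 16390 loci with a mean of at least 1 TPM, the median L was 0.32 in the wild type and 0.09 in sid2, against 0.01 and -0.01 on TMM-scaled CPM. On that scale the members' median L was 1.96 in the wild type and -0.01 in sid2, and only 34 of the 90 met the rule. Of the members described below under salicylic acid, ICS1, PR2, TGA7, AT5G10760 and AT4G26120 met it on that scale. TRX5, UGT76B1, WRKY38, NPR3 and MES9 did not. Summed levels of 10 mesophyll markers were 48533 to 63735 TPM in WT latB, against 107609 to 111372 in WT DMSO and 99897 to 110692 in the 6 sid2 libraries. Summed levels of 10 epidermis markers were 260 to 586 TPM in WT latB and 728 to 1088 in WT DMSO, with 503 to 1105 in sid2, and GL1 was at 0 in all groups. The 9 phloem markers summed to 926 to 1070 TPM in WT latB against 635 to 857 in WT DMSO and 830 to 1109 in sid2, the 9 guard cell markers to 502 to 552, 514 to 577 and 519 to 687, and the 8 xylem markers to 7.55 to 11.3, 9.99 to 12.9 and 4.91 to 13.5. None of the marker genes was a member. In whole leaves, fewer cells of a type and less RNA per cell cannot be told apart, and the part of such shifts in the members' levels was not tested. Library 3 of WT latB was the highest of its group for 72 members (80%), and for 519 of the 605 other genes that met the wild-type criteria (85.8%). Without it, 63 genes met the rule.

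Mock leaves of the genotypes were then compared, to see where the members stood without the toxin. The libraries of this contrast also entered the rule, so its counts are not independent of the choice. Of the 85 members tested, 11 (12.9%) were higher in sid2 DMSO than in WT DMSO and 11 (12.9%) lower, against 4.46% higher and 6.56% lower over the 18149 genes tested (edgeR quasi-likelihood test, adjusted p below 0.05). The counts by role given further on have the same background. For the other 63 no difference passed, and AT3G19615, MSRB7, AT4G21950, PROPEP2 and AT3G55910 did not pass the filter on low counts. Of the 85 tested, 10 passed that filter only through WT latB, with 2 to 61 reads in all over the 6 mock libraries, so their mock comparison says little. They were AT1G13550, AT1G43310, PP2-B6, XTH10, AT2G27389, AT2G44240, AT3G09960, AT3G60961, AT4G11910 and CML43, and AT2G44240 alone of them was called. Without them, 11 of 75 members (14.7%) were higher and 10 (13.3%) lower. The median log2 difference over the tested members was 0.20, and 0.01 over all genes. The 605 other genes that met the wild-type criteria had 45 higher (7.51%) and 75 lower (12.5%) of 599 tested, with a median of -0.07. Set against WT DMSO by library, all 6 sid2 libraries lay below it for 9 members, against 4.1% of the 27313 loci, above it for 11, against 3.6%, and overlapped it for 70. Loci without reads are among the 27313, and the rule used these libraries too.

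The 22 calls differed in how firmly they held. In all 19 alternatives run, the call held for ICS1, MES9, AT5G47050 and AT5G58570 among the higher and for ARD3, UGT76B1, WRKY38, scpl16, RLP34 and AT5G25820 among the lower. DOGT1 lost its call with the 6 libraries alone. AT2G44240 lost its call in both limma fits. It was not tested with the 6 libraries alone, since it passed the filter only through WT latB. CRT1b, TRX5, AT1G53100, LUP5, TGA7, AT5G38210 and AT5G52760 lost theirs in both limma fits and with the 6 libraries alone. HAB1 lost its call in both limma fits and RGXT3 with the 6 libraries alone. Library-size scaling also ended the calls of CRT1b, TGA7, AT5G38210 and AT5G52760. Leaving out sid2 DMSO library 1 ended the calls of AT1G53100 (adjusted p = 0.157), AT5G38210 (0.189), AT5G52760 (0.148), HAB1 (0.111), NDA2 (0.07), RGXT3 (0.085), TGA7 (0.172) and TRX5 (0.112). Leaving out WT DMSO library 1 ended those of AT1G53100 (0.0825), AT5G38210 (0.17), AT5G52760 (0.0697), CRT1b (0.0968), HAB1 (0.0861), LUP5 (0.118), NDA2 (0.083), RGXT3 (0.105) and TGA7 (0.108). Without WT DMSO library 2, adjusted p was 0.151 for AT5G38210, 0.129 for AT5G52760, 0.0839 for CRT1b, 0.072 for RGXT3 and 0.0773 for TRX5. Without WT DMSO library 3 it was 0.0516 for AT1G53100, 0.0708 for AT5G52760, 0.0839 for CRT1b, 0.0699 for HAB1, 0.103 for LUP5, 0.0646 for NDA2, 0.0756 for TGA7 and 0.0711 for TRX5. Without sid2 DMSO library 2 or 3, CRT1b was at 0.0555 and 0.085. The calls of AT5G38210 (0.0556), NDA2 (0.0824) and TRX5 (0.0797) were lost without sid2 DMSO library 2 but kept without library 3. Those of AT5G52760 (0.07), LUP5 (0.0799) and RGXT3 (0.0738) were lost without sid2 DMSO library 3 but kept without library 2. AT5G38210 also lost its call without any of the 6 latB libraries (0.0536 to 0.0655), CRT1b and LUP5 without sid2 latB library 1 (0.056 and 0.0514), and AT5G52760 without WT latB library 2 (0.0505). The direction was kept in each of these fits. The number higher was 5 without WT DMSO library 1 and 6 without sid2 DMSO library 1.

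Under latrunculin B, where the rule largely fixes the direction, 82 of the 85 members tested (96.5%) were lower in sid2 than in the wild type and 1, ICS1, was higher. Over all genes tested, 21.2% were lower and 22.1% higher. The members' median log2 difference was -2.39, and that of all genes 0.02. For the other 2 no difference passed: DOGT1 was at -0.58 ± 0.35 (log2, SE, adjusted p = 0.192) and AT2G27389 at -3.11 ± 1.21 (adjusted p = 0.0554).

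**Figure D3:**
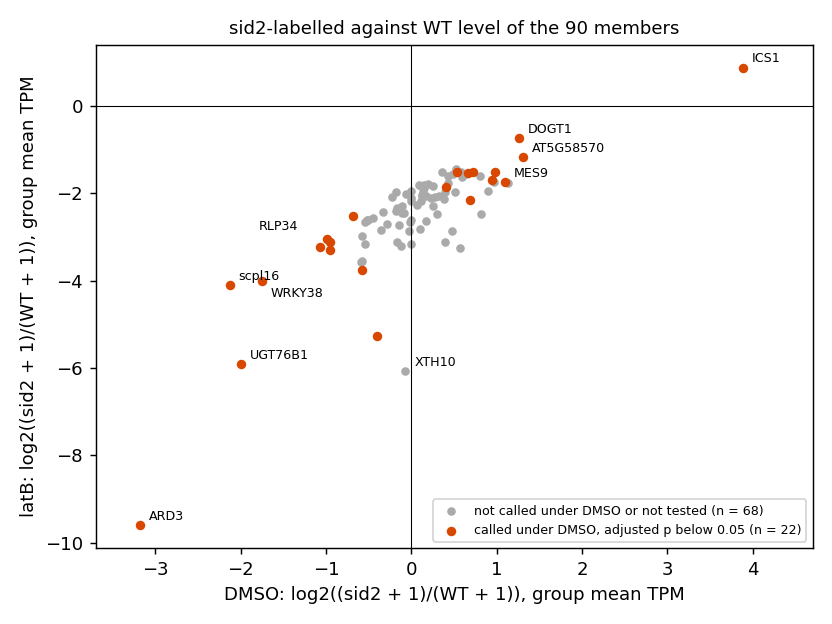
Level in sid2-labelled against WT leaves for the 90 members, under DMSO (horizontal) and latrunculin B (vertical), as log2 of the ratio of group mean TPM + 1; each point is a member and orange points are the 22 called under DMSO. The rule places each point 2 or more below its horizontal value, give or take the sid2 band; ICS1 alone stands above 0 on the vertical axis, and ARD3 is the lowest.

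Of the 10 members of salicylic acid synthesis, perception and response, 3 were higher and 3 lower in sid2 under DMSO, against 4.46% and 6.56% of all genes tested, and those of TGA7 and TRX5 were lost in 7 of the 19 alternatives each. ICS1 (listed as EDS16) stood at 8.97, 9.75 and 10.3 TPM in WT DMSO, 64.1, 75.1 and 99.2 in WT latB, 156, 155 and 158 in sid2 DMSO, and 138, 132 and 173 in sid2 latB. All sid2 libraries were thus above all WT libraries, and sid2 was higher than the wild type by 4.03 ± 0.16 (log2, SE, adjusted p = 1.18e-08) under DMSO. Under latrunculin B the mean was 148 TPM in sid2 and 79.5 in the wild type (edgeR adjusted p = 1.29e-05). The transcript of the mutated gene is therefore abundant in the libraries labelled sid2, where its level does not test the lesion. It met the rule with a flat response at a high level, not at the WT mock level.

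UGT76B1, a glycosyltransferase that conjugates salicylic acid and N-hydroxypipecolic acid, was at 3.19, 2.28 and 3.53 TPM in WT DMSO and 47.9, 58.5 and 91.7 in WT latB. It had no read in sid2 DMSO and 2, 4 and 6 reads in the sid2 latB libraries. Its level in WT DMSO was at least 85.7-fold higher than in sid2 DMSO, taking 3 reads over the group as the floor (adjusted p = 1.25e-05). WRKY38, a WRKY factor known to dampen basal defence, was at 2.52, 2.12 and 2.51 TPM in WT DMSO and 13.1, 14.6 and 17.2 in WT latB, with no read in any sid2 library. It was at least 36.6-fold higher in the wild type under DMSO (adjusted p = 5.88e-05) and at least 235-fold under latrunculin B. Floors and bounds of this kind cover counting error only.

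TRX5, a thioredoxin reported to act on NPR1, was the member with the highest level in WT latB. Its TPM values were 143, 220 and 229 in WT DMSO, 679, 944 and 1154 in WT latB, 61.5, 55 and 163 in sid2 DMSO, and 99.8, 85.7 and 106 in sid2 latB. The sid2 DMSO libraries overlapped those of WT DMSO, with a difference of -1.13 ± 0.30 (log2, SE, adjusted p = 0.0271). PR2 (listed as BGL2), a secreted beta-1,3-glucanase used as a marker of salicylic acid response, was at 63.8, 83.8 and 119 TPM in WT DMSO, 580, 592 and 742 in WT latB, 76.5, 122 and 87.8 in sid2 DMSO and 78.7, 119 and 73.4 in sid2 latB. Only WT latB stood apart, and the mock levels gave 0.15 ± 0.23 (log2, SE, adjusted p = 0.746). NPR3, a receptor of salicylic acid that represses defence genes, was at 20.2, 16.9 and 20.6 TPM in WT DMSO, 74.1, 64 and 111 in WT latB, and 15.1 to 24.9 over the sid2 libraries. AT5G10760, the apoplastic aspartyl protease AED1, was at 375, 348 and 347 TPM in WT latB and between 46.8 and 76.1 in the other 9 libraries.

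MES9, a methyl esterase that can release salicylic acid from its methyl ester, was at 2.85, 2.71 and 4.62 TPM in WT DMSO and at 7.09, 9.23 and 8.91 in sid2 DMSO. With 22, 33 and 28.4 TPM in WT latB and 6.73, 11 and 5.17 in sid2 latB, its mock level was higher in sid2 by 1.37 ± 0.29 (log2, SE, adjusted p = 0.00893). TGA7 was at 1.89, 5.88 and 4.14 TPM in WT DMSO, 27.9, 22.4 and 25.5 in WT latB, 12.3, 6.31 and 7.86 in sid2 DMSO, and 10, 7.63 and 6.88 in sid2 latB. All sid2 libraries were above WT DMSO, by 1.15 ± 0.32 under mock treatment (log2, SE, adjusted p = 0.0358). AT4G26120, an ankyrin repeat BTB/POZ protein with the domains of the NPR proteins, was at 9.69, 9.91 and 16.7 TPM in WT latB. It was at 1.25, 1.41 and 1.55 TPM in WT DMSO and 1.9 to 4.63 over the sid2 libraries. All sid2 libraries thus lay above WT DMSO, but the mock difference did not pass (0.94 ± 0.30, log2, SE, edgeR adjusted p = 0.0595).

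**Figure D4:**
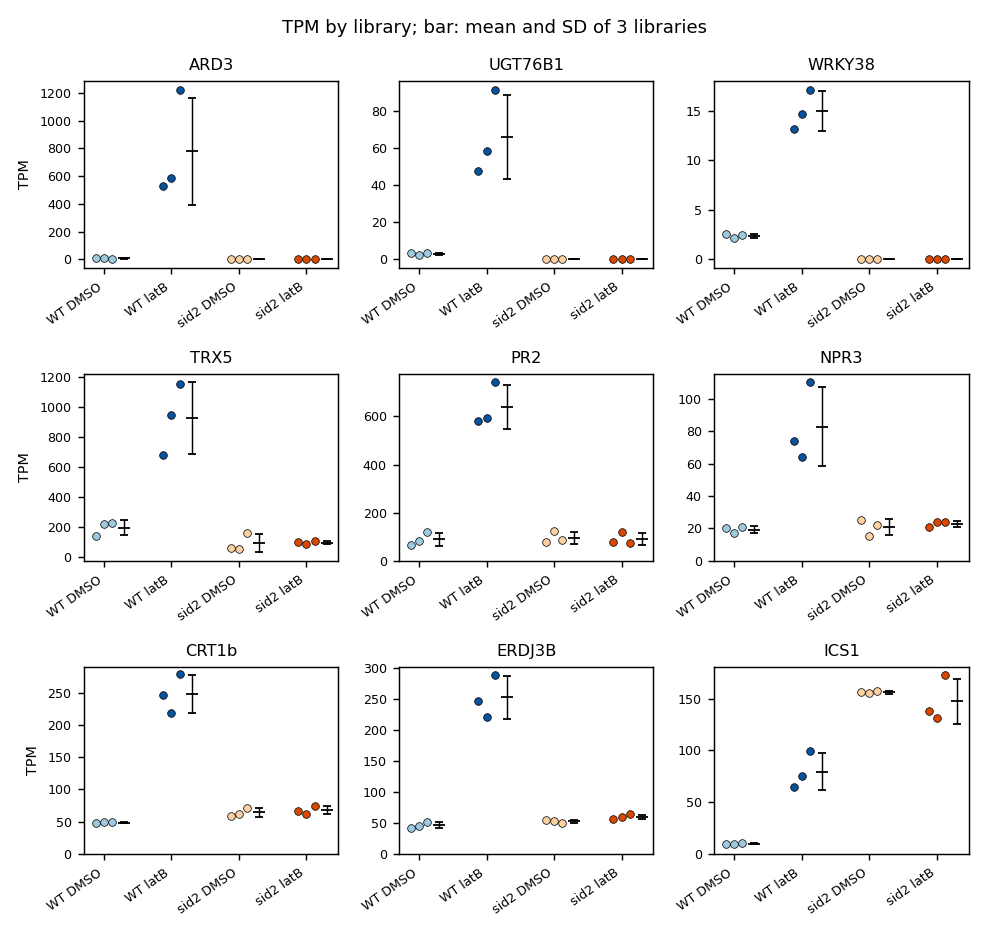
TPM by library for 9 members (panels), in WT DMSO, WT latB, sid2 DMSO and sid2 latB; points are libraries and bars the mean and SD of 3 libraries. The sid2 libraries lie at 0 or close to it for ARD3, UGT76B1 and WRKY38, at the WT DMSO level for PR2 and NPR3, and above every WT library for ICS1.

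The 7 receptor-like proteins and kinases had wild-type L values from 2.06 to 2.90. RLP34, a leucine-rich repeat receptor-like protein, was at 38, 41.3 and 48.4 TPM in WT DMSO, 183, 179 and 181 in WT latB, 25.6, 14.9 and 22.3 in sid2 DMSO and 22.3, 18.9 and 21.9 in sid2 latB. It was lower in sid2 mock leaves by -1.02 ± 0.17 (log2, SE, adjusted p = 0.00195). The cysteine-rich kinase CRK18 was at 159, 155 and 195 TPM in WT latB and at 24.4 to 45.7 in the other libraries, and CRK23, with 5 loci between them on chromosome 4, at 18, 18.2 and 19.6 against 1.27 to 2.42. RLP41 was at 78.3, 72.8 and 79.7 TPM in WT latB and RLP39, with 2 loci between them on chromosome 3, at 11, 7.45 and 10.6. Reads shared between such paralogs could have been divided between them, so their levels are uncertain. The kinase AT5G38210 was called higher in sid2 mock leaves, at 0.61 ± 0.18 (log2, SE, adjusted p = 0.0446), and lost the call in 14 of 19 alternatives.

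Of the 5 calcium-binding proteins and peptides, none was called under DMSO among 4 tested, with AT1G21550 and AT4G14020 next to the threshold at adjusted p = 0.05 and 0.0503. The EF-hand protein AT3G47480 was at 68.4, 86.4 and 71 TPM in WT DMSO, 798, 735 and 1133 in WT latB, 109, 66.5 and 139 in sid2 DMSO and 109, 119 and 139 in sid2 latB. CML43, a calmodulin-like calcium sensor, was at 9.71, 14.3 and 16.3 TPM in WT latB and at 0 to 0.932 in the other 9 libraries. PROPEP2, the precursor of an immune peptide perceived by PEPR receptors, was at 1.5, 2.93 and 6.8 TPM in WT latB and at 0 elsewhere apart from 0.315 in a sid2 latB library. It was not tested because of low counts.

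Both members of ER protein folding had closely matched levels. CRT1b (calreticulin, a lectin chaperone of glycoproteins) was at 47.3, 49.2 and 48.8 TPM in WT DMSO, 247, 219 and 279 in WT latB, 59.1, 61.8 and 71.8 in sid2 DMSO and 65.8, 62.2 and 74.5 in sid2 latB. ERDJ3B (listed as ATERDJ3B), a cochaperone of the ER chaperone BiP, was at 42.1, 45.2 and 51.4 TPM, then 247, 221 and 289, then 55.2, 52 and 49.2, and 56.8, 59.4 and 63.4 in the same order. CRT1b was called higher in sid2 mock leaves, at 0.44 ± 0.12 (log2, SE, adjusted p = 0.0334), and lost the call in 10 of 19 alternatives. Of 29 genes of ER folding and quality control, 16 met the wild-type criteria. Of these, 13 lay above the sid2 band, such as the BiP genes BIP1 (L of 2.56 and 0.59 in the wild type and sid2) and BIP2 (2.82 and 0.92), and only BIP3 lay below it (3.54 and -0.50).

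The 9 members of lipid and terpenoid metabolism had 1 call under DMSO, the terpenoid cyclase LUP5, at 2.75, 1.77 and 2.84 TPM in WT DMSO and 1.6, 1.53 and 0.814 in sid2 DMSO (log2 difference -0.88 ± 0.25, SE, adjusted p = 0.0345). It reached 25.2, 20.5 and 31.4 TPM in WT latB. The alpha/beta hydrolase AT5G24210 was at 333, 341 and 491 TPM in WT latB and at 74.6 to 157 elsewhere. The lipid-transfer protein AT2G44290 was at 285, 320 and 335 TPM in WT latB and at 41.3 to 70.1 elsewhere. AT2G30550, the lipase DALL3, was at 87.4, 107 and 181 TPM in WT latB, at most 16.1 in WT DMSO and 7.05 to 11.8 in sid2. AT1G02470, of a lipid transport family, was at 21, 18.5 and 31 TPM in WT latB and 0.36 to 2.21 elsewhere.

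Among 10 genes of the cell wall and of glycosyl transfer, XTH10, an enzyme family that cuts and rejoins xyloglucan, had a wild-type L of 5.83. Its TPM values were 0.125, 0.303 and 0.353 in WT DMSO, 45.3, 39.5 and 128 in WT latB, 0.116, 0.21 and 0.275 in sid2 DMSO and 0.0939, 0 and 0.109 in sid2 latB. Those are 593 to 2134 reads per library in WT latB and at most 8 in any other, and the mock groups overlapped. DOGT1 (UGT73C5, which glucosylates the fungal toxin deoxynivalenol and brassinosteroids) was at 0.494, 1.66 and 2.16 TPM in WT DMSO, 10.9, 9.59 and 10 in WT latB, 7.08, 3.26 and 4.18 in sid2 DMSO and 4.99, 7.29 and 4.88 in sid2 latB. It was higher in sid2 mock leaves by 1.77 ± 0.38 (log2, SE, adjusted p = 0.00892). The exostosin-family gene AT5G25820 was at 0.665, 1.48 and 1.96 TPM in WT DMSO and 10.3, 9.44 and 14.7 in WT latB. It was at 0.249, 0.0947 and 0.32 TPM in sid2 DMSO and 0.476, 0.407 and 0.431 in sid2 latB. Its sid2 latB libraries thus all lay above those of sid2 DMSO, at levels where the pseudocount of 1 shrinks L. On TMM-scaled CPM its sid2 L was 0.43, outside the band. In mock leaves it was lower in sid2 by -2.63 ± 0.42 (log2, SE, adjusted p = 0.00157). Also called were RGXT3, a xylosyltransferase, at -1.75 ± 0.47 (log2, SE, adjusted p = 0.0279) and AT1G53100 at 2.55 ± 0.64 (adjusted p = 0.0218).

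The 16 genes of other metabolism and redox had 3 calls under DMSO, all lower in sid2. ARD3, an enzyme of the methionine salvage cycle, was at 11, 9.06 and 4.2 TPM in WT DMSO and 528, 585 and 1223 in WT latB. No read was counted in any of the 6 sid2 libraries, against 64 to 127 per WT DMSO library and 6240 to 15162 per WT latB library. With the floor of 3 reads over the group, the wild type was at least 86.1-fold higher under DMSO (adjusted p = 0.00104) and at least 8666-fold higher under latrunculin B. Of 16463 loci with at least 10 reads in every WT DMSO library, 3 had none in sid2, namely ARD3, WRKY38 and AT3G47050, which is no member. No locus showed the reverse among 15914. These loci were sought after their values were seen. The labels are silent on whether the lines differ at other loci.

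The serine carboxypeptidase-like gene scpl16 was at 12, 10.4 and 8.39 TPM in WT DMSO, 44.2, 42.2 and 59.1 in WT latB, 1.32, 1.81 and 1.58 in sid2 DMSO and 1.85, 2.09 and 1.72 in sid2 latB. The groups of the mock contrast did not overlap, with a difference of -2.70 ± 0.19 (log2, SE, adjusted p = 2.29e-06). NDA2, an alternative mitochondrial NAD(P)H dehydrogenase, was at 8.94, 8.06 and 9.3 TPM in WT DMSO and 5.33, 4.19 and 5.72 in sid2 DMSO (-0.74 ± 0.20, log2, SE, adjusted p = 0.0269). PPDK, which makes phosphoenolpyruvate from pyruvate, was at 209, 207 and 233 TPM in WT latB and 34.4 to 75.9 elsewhere. The methyltransferase-family gene AT2G41380 was at 31.6, 44.1 and 54.5 TPM in WT latB and 1.12 to 4.74 elsewhere. MSRB7, a methionine sulfoxide reductase, was at 0.918, 3.26 and 6.37 TPM in WT latB with no read in the other libraries.

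The 4 transport genes were led by AT5G52760, of a copper transport family, at 53.6, 43.6 and 52.7 TPM in WT DMSO, 270, 340 and 438 in WT latB, 96.8, 59.4 and 86.1 in sid2 DMSO and 62.5, 77.3 and 92.9 in sid2 latB. All sid2 libraries lay above WT DMSO, and the mock difference was 0.71 ± 0.20 (log2, SE, adjusted p = 0.037), lost in 10 of 19 alternatives. The 15 genes of transcription, protein turnover, trafficking and other regulation had 2 calls, both higher in sid2. AT5G47050, of an S-ribonuclease binding family, was at 13.4, 15.5 and 12.2 TPM in WT DMSO, 54.8, 51.9 and 67.9 in WT latB, 25.2, 21.8 and 20 in sid2 DMSO and 21.6, 16.7 and 19.9 in sid2 latB (mock difference 0.74 ± 0.15, log2, SE, adjusted p = 0.00595). HAB1, a phosphatase that restrains abscisic acid signalling, was at 8.29, 10.7 and 8.63 TPM in WT DMSO, 37.6, 43.6 and 45.2 in WT latB, 21.1, 13.5 and 13 in sid2 DMSO, and 16.8, 15.3 and 10.2 in sid2 latB (0.81 ± 0.21, log2, SE, adjusted p = 0.0233). XND1, a NAC factor that restrains xylem vessel formation, was at 10.5, 7.62 and 17.2 TPM in WT latB and 0.864 to 3.96 elsewhere.

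For 12 members no function is given here. AT5G58570 was at 10.7, 18.7 and 15 TPM in WT DMSO, 109, 72.9 and 78.7 in WT latB, 41.4, 33.9 and 38.9 in sid2 DMSO and 42.7, 34.2 and 36.9 in sid2 latB. Its sid2 libraries thus lay between the WT groups, and mock sid2 was higher by 1.51 ± 0.23 (log2, SE, adjusted p = 0.00106). AT2G44240, with 4 loci between it and AT2G44290 on chromosome 2, had 13, 12 and 7 reads in WT DMSO, 855, 1061 and 1751 in WT latB, none in sid2 DMSO and 8, 1 and 4 in sid2 latB. WT DMSO was at least 8.82-fold above sid2 DMSO. It passed the filter only through WT latB, and its call under DMSO (adjusted p = 0.0118) rested on few mock reads and was lost in both limma fits, with an adjusted p of up to 0.239. AT4G21950, with a wild-type L of 3.15, rested on 1, 12 and 4 reads in WT latB and none in any other library, and was not tested. ATMG01020 is a mitochondrial locus whose reads could come from a nuclear copy, so its values are uncertain. On the chromosomes, 23 members lay on chromosome 1, 14 on 2, 17 on 3, 12 on 4 and 23 on 5. Besides the pairs named above, PP2-B6 and SKIP3 (2 loci between) and ELF4-L1 and NDA2 (3 between) were close on chromosome 2. The members' median coding length was 957 bases, against 999 for the other genes that met the wild-type criteria.

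The lists of related genes are selections that do not hold whole families, so their counts cover listed genes only. Members outside the lists include the NAC factors NAC061 and XND1 and the receptor-like genes RLP34, RLP39, RLP41, CRK18 and CRK23. TRX5, TGA7 and MES9 are in no list either. Of 22 genes of salicylic acid response, 12 met the wild-type criteria and 3 were members (PR2, NPR3 and WRKY38), while 9 lay above the sid2 band. PR1 was among those 9, at L of 5.45 in the wild type and 2.81 in sid2. Under DMSO, 15 of the 22 were lower in sid2 and 1 higher, with a median log2 difference of -1.56 against 0.01 over all genes. Of 18 genes of salicylic acid synthesis and its regulators, 8 met the criteria and 2 were members (ICS1 and UGT76B1), with 3 higher and 5 lower of 16 tested under DMSO. Of 4 genes of the N-hydroxypipecolic acid pathway 3 met the criteria and UGT76B1 alone was a member. Of 27 WRKY factors 10 met the criteria and WRKY38 alone was a member, with 8 above the band and WRKY51 below it. No member stood among 29 listed genes of pattern-triggered immunity and receptor kinases (8 met the criteria) or 28 of oxidative stress and detoxification (14). The same held for 16 listed senescence and NAC factors (7), 12 regulators of the unfolded protein response (4) and 18 genes of ER import and N-glycosylation (1). It also held for 13 listed genes of secretion (1), 20 of jasmonate and ethylene (1) and 16 NLR receptors (0). The lists' median L in the wild type and sid2 was 2.12 and 0.43 for ER folding, 2.14 and 0.72 for salicylic acid response, and 1.99 and 0.56 for oxidative stress, against 0.32 and 0.09 over the loci of at least 1 TPM.

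The thresholds run through a continuum of values. At the wild-type threshold, AT5G47050, AT3G60961 and AT4G11350 lay just inside with an L of 2.01 each, and CYP71B19 (just under 2), AT5G65300 (1.95) and AT1G60830 (1.95) just outside. At the upper sid2 bound, RGXT3 (0.25), AT4G11350 (0.24) and AT5G25820 (0.24) were inside and BGLU10, AT3G62260 and AT1G69520 (0.26 each) outside. At the lower bound, AT5G23240 (-0.24), AT1G22180 (-0.24) and LUP5 (-0.23) were inside and AT1G24575 (-0.27), NIT4 (-0.31) and AT2G32140 (-0.32) outside.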

How the data were processed

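RNA of 12 leaf samples was made into strand-specific libraries (NEBNext Ultra II), per the labels' protocols. The submitters' processing notes name Trimmomatic, Salmon 1.3.0 and TAIR10. For each of 32875 transcripts the authors deposited Salmon's expected count and its TPM, which is scaled within a library for effective length and depth, per the file headers. Nearly all lengths (99.99%) are multiples of 3, so only coding sequence was quantified.

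Both were summed to 27313 loci, of which 26645 have an entry in TAIR10.1, used for names, and for promoters by locus ID. Rounded counts of 18149 genes that passed filterByExpr were scaled by TMM and tested with edgeR 4.0.16 (R 4.3.3, quasi-likelihood, 1 model over the 12 libraries, Benjamini-Hochberg over all genes, threshold 0.05). SE is the log2 fold change over the root of F. The fit was tested on simulated data.

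The members, the 18 gene lists and the tests were chosen with earlier results of these data known. Named genes were ICS1, the 10 members of largest wild-type L with at least 5 TPM in WT latB, the 10 of highest WT latB level, up to 4 members of each list, the 5 of smallest adjusted p in each direction under DMSO, and those next to each threshold. The other named members were chosen after their values were seen. Alternatives were other scalings, no filter, DESeq2 1.42.0, limma 3.58.1, the 6 libraries alone, each library left out, and other settings of the rule.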

Additional observations from a re-analysis of the deposited data

How the results depend on the processing

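The number of genes meeting the rule, 90, depended on its settings: 50 on TMM-scaled CPM (34 shared), 44 with a pseudocount of 5, 213 with a sid2 band of 0.5, 53 with a band of 0.15, 273 with a wild-type threshold of 1.5, 32 with 2.5, and 54 with TPM divided by the TMM factors (an alternative added after the data were seen, as was 66 with a sid2 mean of at least 1 TPM). Leaving out 1 library gave 63 (without WT latB library 3) to 127 (without sid2 DMSO library 2), and 19 members met the rule in all 12 such settings. The cause was not tested. The 11 members higher in sid2 under DMSO were 7 with library-size scaling, 5 in each limma fit (pseudocounts of 1 and 0.5), 5 with the 6 libraries alone, and 5 to 15 with a library left out. The 11 lower were 7 with the 6 libraries alone and 8 to 11 with a library left out. Under latrunculin B the counts were 1 higher throughout and 80 to 87 lower with a library left out, where the filter can pass more members. No call of a named member reversed. No paired analysis was possible because the labels carry no replicate numbers shared between groups. Members of few reads, such as AT4G21950 and AT3G60961, are limited by depth.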
